A study of Mus musculus with 2 samples.

Results

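The genes described here encode 8 proteins of the T cell surface: Pdcd1, Lag3, Ctla4, Cd160, Cd200, Tnfrsf4, Tnfrsf9 and Tnfrsf18. Most are receptors that restrain or costimulate an activated cell, while CD200 is a ligand. All 8 are called receptors below for brevity. They were chosen by name, with earlier results of these data known, as 8 of the 32285 genes in the count table. Their transcripts were followed in 10007 of 16179 cell barcodes. Each of these barcodes had 1000 genes or more, no more than 5% of its UMIs (unique molecular identifiers, each standing for 1 captured transcript) on mitochondrial genes, and 1 hashtag row that dominated: of the 8 rows numbered 11 to 18, a single one held 80% or more of 10 or more UMIs.

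The study sorted invariant natural killer T (iNKT) cells, a T cell lineage with a nearly fixed T cell receptor that recognises lipids on CD1d, from the thymus of C57BL/6 mice. Ctrl mice were compared with T-KO mice, in which floxed Kidins220 is deleted by Cre under the proximal Lck promoter, active from early thymocytes onward and not only in iNKT cells. Stage 0 cells (TCRβ+, CD1d tetramer+, CD24+, NK1.1-) and stage 3 cells (TCRβ+, CD1d tetramer+, NK1.1+, CD24-, CD44+) were each sorted from pools of 4 thymi, with 2 pools per stage and genotype, and the 8 populations were joined into 1 droplet library of 5′ transcript ends. The age of these mice was not stated in the labels. The labels give hashtags 1 to 8 to these populations, but 99.9% of the hashtag UMIs lay on rows 11 to 18, and nothing in the sources used here pairs those rows with a stage or genotype. The rows were therefore kept by number, as unassigned samples. No genotypes or stages were compared, no row was treated as a replicate of another, and no test between rows was run. Odd rows and even rows are named by their numbers only. An interval below is an exact 95% interval for counting error alone, and levels are CPM, the UMIs of a gene per 1000000 UMIs of all genes in the same cells.

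As background, PD-1 (encoded by Pdcd1), CTLA-4, LAG-3 and CD160 are inhibitory receptors that T cells put on the surface after antigen receptor signalling and that damp that signalling when they meet a ligand on a neighbouring cell. CD200 is a membrane glycoprotein that signals to a receptor on myeloid cells. Tnfrsf4 (OX40), Tnfrsf9 (CD137) and Tnfrsf18 (GITR) belong to the TNF receptor superfamily: they recruit TRAF adaptors, activate NF-kB and favour survival of the stimulated cell. In the thymus, PD-1 and several of these TNF receptors are known from developing T cells that receive a strong antigen receptor signal, among them regulatory T cell precursors, cells on the way to deletion and agonist-selected lineages. Ikzf2 encodes Helios, a transcription factor of the Ikaros family also known from strongly signalled thymocytes.

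The cells of the odd rows were split by the first match of at least 2 Cd79a UMIs (a B cell receptor subunit), at least 5 Cst3 UMIs (a protease inhibitor abundant in dendritic and other myeloid cells), at least 1 Rag1 UMI (the recombinase of immature lymphocytes) and at least 2 Ikzf2 UMIs, which left a remaining class. None of the 8 genes was used for this split. The Ikzf2 class held 161, 473, 244 and 228 cells in rows 11, 13, 15 and 17, and the remaining class 301, 328, 188 and 126. The markers of an iNKT cell were mixed in the Ikzf2 class, and the 2 that define the lineage were low: Trav11, the variable gene of the invariant receptor, stood at 0.00 to 1.70 CPM there with 5 UMIs in all, against 39.5 to 56.5 CPM in the even rows, and Zbtb16, the iNKT transcription factor PLZF, at 3.41 to 17.8 CPM against 64.7 to 74.7 CPM. The 8 stage 0 iNKT markers summed to 2306 to 2468 CPM in the class, against 1053 to 1819 CPM in the remaining cells and 327 to 382 CPM in the even rows; Ikzf2 itself, which set the class, held a median of 862 CPM of that sum. Of the others, Slamf6 had a median of 129 CPM in the class against 47.8 CPM in the remaining cells, Sox4 621 against 377 CPM and Egr2 37.0 against 8.10 CPM. Cd24a stood at 341 against 352 CPM and Itm2a at 415 against 363 CPM. Cd24a, Itm2a, Zbtb16 and Trav11 were each higher in the class in some rows and lower in others. The class is called by its rule. Its B cell markers summed to 136 to 169 CPM and its myeloid markers to 206 to 301 CPM. The odd rows as a whole held 6162 to 17310 and 2328 to 6697 CPM. Cells past the Cd79a and Cst3 limits were taken out before this class was formed, so these low sums follow in part from the rule. The remaining cells, left by the same rule, held 194 to 451 and 183 to 413 CPM. The even rows carried stage 3 iNKT1 markers (Klrb1c, Nkg7, Tbx21 and others) at a summed 3810 to 4250 CPM, against 235 to 297 CPM in the odd rows.

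Of the 8 genes, 4 were at least 2-fold higher in the Ikzf2 class than in the remaining cells of the same row in all 4 odd rows: Pdcd1, Tnfrsf9, Cd160 and Cd200. The same held for 0.825% of the 7027 genes with a median of at least 20 CPM over these rows in either class. Tnfrsf9 and Cd200 passed this limit in the Ikzf2 class alone. The 8 genes and the classes were chosen with earlier results of these data known. Such shares of all genes, here and below, are therefore a description and not a test. The upstream sequences of the 4 called genes are printed to show the stretch before the start of each. All 8 gene IDs matched GENCODE M21 on GRCm38 (mm10). Pdcd1 lies on chromosome 1 (94038305 to 94052553, minus strand), Tnfrsf9 on chromosome 4 (150914562 to 150946102, plus strand), Cd160 on chromosome 3 (96798763 to 96829351, minus strand) and Cd200 on chromosome 16 (45382135 to 45409053, minus strand). The Tnfrsf9 gene is overlapped on the other strand by Camta1, and the start of Cd160 by Pdzk1. RefSeq promoter windows on GRCm38.p6 were found for 7 of the 8 genes, Lag3 being the one without an entry. The 250 bases before each annotated start follow, read 5′ to 3′ on the gene's strand, with matches to the searched motifs in capitals.
Pdcd1 (chr1:94052554-94052803, minus strand): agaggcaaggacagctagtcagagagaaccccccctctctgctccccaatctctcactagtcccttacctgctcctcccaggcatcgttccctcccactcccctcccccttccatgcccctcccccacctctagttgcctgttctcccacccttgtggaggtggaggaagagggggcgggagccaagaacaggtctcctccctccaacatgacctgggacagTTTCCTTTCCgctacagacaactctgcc
Tnfrsf9 first start (chr4:150919905-150920154, plus strand): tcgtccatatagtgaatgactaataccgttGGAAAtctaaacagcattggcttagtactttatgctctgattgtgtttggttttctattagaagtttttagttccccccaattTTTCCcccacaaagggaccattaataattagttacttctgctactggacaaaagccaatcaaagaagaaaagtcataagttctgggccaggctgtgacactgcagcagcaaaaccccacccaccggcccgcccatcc
Tnfrsf9 second start (chr4:150927749-150927998, plus strand): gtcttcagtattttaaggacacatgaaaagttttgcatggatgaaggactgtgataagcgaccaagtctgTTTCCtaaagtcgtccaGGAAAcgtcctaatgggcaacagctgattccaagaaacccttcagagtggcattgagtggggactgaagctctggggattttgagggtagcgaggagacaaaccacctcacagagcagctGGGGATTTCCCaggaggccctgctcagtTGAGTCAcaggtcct
Cd160 first start (chr3:96829352-96829601, minus strand): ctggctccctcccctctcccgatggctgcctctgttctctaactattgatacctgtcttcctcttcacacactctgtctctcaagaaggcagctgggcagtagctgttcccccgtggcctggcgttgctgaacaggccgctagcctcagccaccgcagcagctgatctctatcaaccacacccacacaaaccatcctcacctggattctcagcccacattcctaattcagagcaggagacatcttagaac
Cd160 second start (chr3:96814522-96814771, minus strand): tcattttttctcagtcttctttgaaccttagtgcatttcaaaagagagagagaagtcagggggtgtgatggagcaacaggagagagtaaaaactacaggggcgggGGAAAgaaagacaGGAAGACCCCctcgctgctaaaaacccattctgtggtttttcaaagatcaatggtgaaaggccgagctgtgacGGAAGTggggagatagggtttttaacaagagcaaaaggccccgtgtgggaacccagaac
Cd200 (chr16:45409054-45409303, minus strand): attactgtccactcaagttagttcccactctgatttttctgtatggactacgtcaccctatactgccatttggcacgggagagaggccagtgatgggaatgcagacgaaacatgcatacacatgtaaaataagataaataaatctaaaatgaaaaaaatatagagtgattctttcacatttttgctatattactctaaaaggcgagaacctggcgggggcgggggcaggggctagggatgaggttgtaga

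Both strands were searched for the NFAT core GGAAA, the AP-1 site TGANTCA, the NF-kB consensus, the NBRE AAAGGTCA bound by Nr4a receptors, and the ETS core GGAAGT. The window before the second Tnfrsf9 start held a doubled match to the NF-kB consensus at 43 and 42 bases before the start, overlapped by an NFAT core at 38, as well as an AP-1 match at 15 and NFAT cores at 180 and 163. In the Pdcd1 window, NFAT cores stood at 28 and 23 bases before the start. The second Cd160 window held an NFAT core, an NF-kB match and an ETS core, while the Cd200 window and the first Cd160 window held none of the 5 motifs. Among all 32851 RefSeq windows, 55.6% held the NFAT core, 6.75% the AP-1 site, 7.25% the NF-kB consensus, 1.34% the NBRE and 19.7% the ETS core, so the NFAT core in a window is common. A match describes letters in this window and not a bound site.

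Across the whole rows, every one of the 8 genes had its 4 even rows on one side of its 4 odd rows. Cd160 and Tnfrsf18 were higher in the even rows and the other 6 were lower. Such a separation was the rule rather than the exception in this library: of 7916 genes with at least 20 CPM in 1 row or more, 36.5% lay with all even rows below all odd rows and 27.2% with all above. Ctla4 and Tnfrsf4 did not reach 20 CPM in any row, and Lag3 reached it in row 11 alone. The odd rows also differed from the even rows in depth, with a median of 6500 to 8068 UMIs per cell against 3258 to 3804. They differed too in the B cell and myeloid marker sums given above, which were 300 to 682 and 666 to 804 CPM in the even rows. The B cell sum is not a share of B cells, since the Cst3 class held 18906 to 27999 CPM on that list. The part of depth or of other cell types in these row levels was not tested. In summed RNA of a row, fewer cells of a type and less RNA per cell cannot be told apart.

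Pdcd1 stood at 65.5, 131, 109 and 156 CPM in rows 11, 13, 15 and 17. In rows 12, 14, 16 and 18 it stood at 14.04, 14.6, 19.3 and 21.7 CPM. The lowest odd row was 3.02-fold above the highest even row, and row 11 was the lowest of the odd rows for Pdcd1, Ctla4, Cd160, Cd200 and Tnfrsf9 alike.

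Cd160, a receptor for the TNF receptor family member HVEM that is also carried by NK cells, stood at 143, 159, 171 and 182 CPM in rows 12, 14, 16 and 18. Its odd rows held 21.7, 38.8, 40.5 and 58.3 CPM. Tnfrsf18 was at 174, 186, 170 and 177 CPM in the same even rows, and at 30.8, 28.5, 26.3 and 39.6 CPM in rows 11, 13, 15 and 17. The even rows of Tnfrsf18 were close to each other, and the lowest of them was 4.30-fold above the highest odd row. For Cd160 this gap was 2.45-fold.

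Tnfrsf9 was the least separated of the 8. Its odd rows stood at 26.4, 55.2, 54.0 and 69.8 CPM and its even rows at 10.4, 12.7, 21.5 and 25.6 CPM, so that row 11 and row 18 differed by less than their counting intervals, and with ribosomal protein, predicted (Gm) and mitochondrial genes left out of the total the rows overlapped. Cd200 fell from 14.5, 25.5, 21.7 and 31.5 CPM in the odd rows to between 1.49 and 3.07 CPM in the even rows, where single transcripts were counted. Lag3 was at 20.0, 13.2, 10.8 and 13.9 CPM in the odd rows and at 0.826 to 4.38 CPM in the even rows. Ctla4 (4.41 to 8.33 CPM in odd rows, 1.32 to 2.63 CPM in even rows) and Tnfrsf4 (4.59 to 9.55 and 0.826 to 2.06 CPM) were low throughout.

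**Figure D1:**
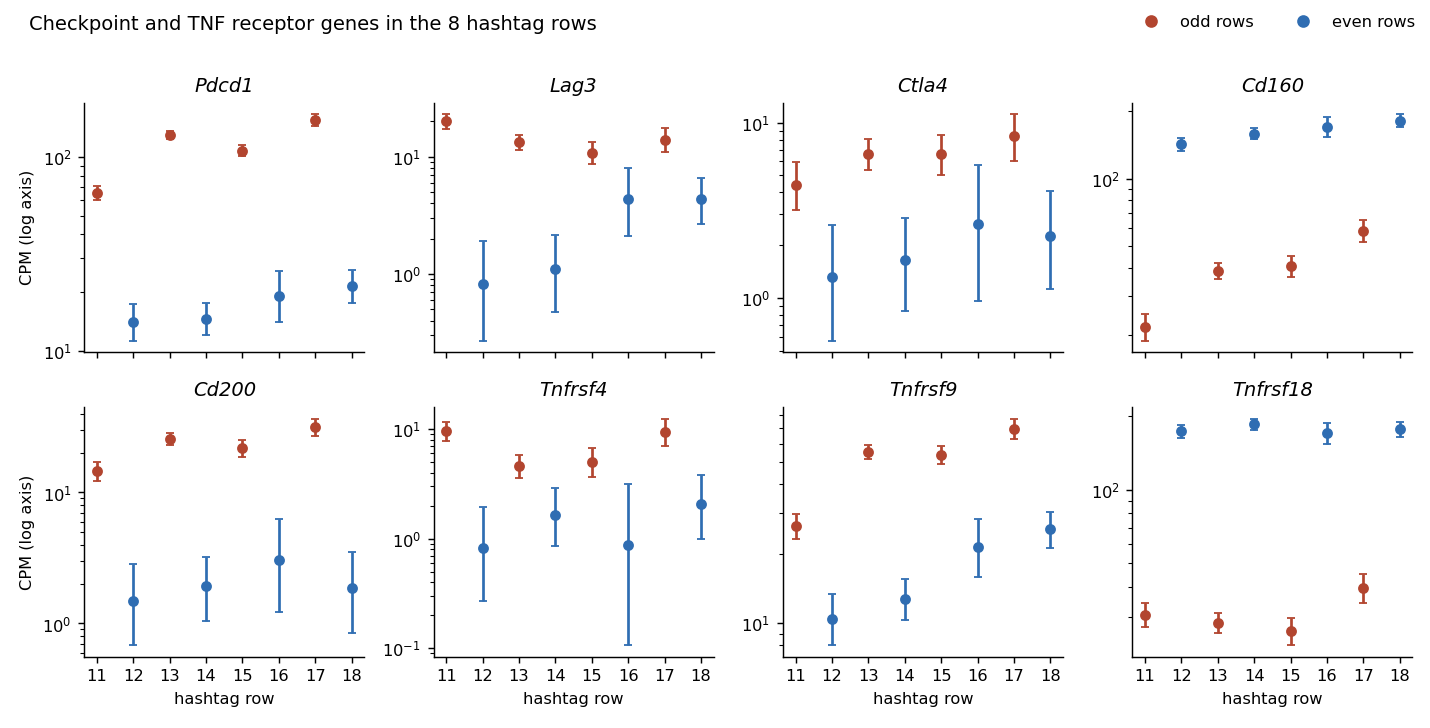
Level of each gene (CPM, log axis) in hashtag rows 11 to 18; points are rows, bars exact 95% counting intervals, odd rows red and even rows blue. Cd160 and Tnfrsf18 are higher in the 4 even rows, the other genes lower, and Tnfrsf9 in row 11 and row 18 nearly meet.

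Within the odd rows the transcripts were unevenly spread over the classes. The Ikzf2 class held 12.1% to 32.6% of a row's UMIs but 74.6% to 81.0% of its Pdcd1, 71.2% to 83.6% of its Tnfrsf9 and 60.2% to 78.9% of its Cd160 UMIs. Of the 8 genes, 6 reached the median of 20 CPM in either class, all but Ctla4 and Tnfrsf4. Tnfrsf9, Cd200 and Lag3 reached it in the Ikzf2 class alone, with medians of 12.6, 11.3 and 2.91 CPM in the remaining cells. When genes were ranked by the median log2 ratio of CPM + 10, Tnfrsf9 came 2nd, Pdcd1 3rd, Cd160 20th and Cd200 44th among the 7027, and Lag3 and Tnfrsf18 56th and 122nd. The median over all genes tested was 0.02. The Ikzf2 class had a median of 4611 to 5962 UMIs per cell and the remaining cells 2859 to 7120.

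Pdcd1 stood at 415, 433, 346 and 358 CPM in the Ikzf2 class of rows 11, 13, 15 and 17. The remaining cells held 38.8, 48.4, 54.3 and 87.1 CPM, so every Ikzf2 class lay above every remaining class, with log2 ratios of 3.12, 2.92, 2.47 and 1.92. Row 17 had both the smallest ratio and the highest remaining level. In single cells, 23.4% to 25.4% of the class carried at least 5 Pdcd1 UMIs, up to 24 in 1 cell.

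Tnfrsf9 stood at 155, 186, 183 and 179 CPM in the class and at 13.4, 11.9, 6.54 and 16.02 CPM in the remaining cells. Its log2 ratios were 2.82, 3.16, 3.54 and 2.86. Cd160 was at 108, 122, 137 and 137 CPM against 21.001, 21.8, 16.3 and 38.1 CPM, with ratios of 1.92, 2.06, 2.48 and 1.61. These Cd160 levels of the class lay below the 4 even rows, with overlapping intervals at the nearest ends, while for Pdcd1 and Tnfrsf9 the class lay far above them.

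Cd200 was at 33.9, 68.7, 52.1 and 63.6 CPM in the class and at 9.55, 7.72, 13.1 and 13.02 CPM in the remaining cells, with log2 ratios of 1.17, 2.15, 1.43 and 1.68. The B cell class carried Cd200 too at 18.6 to 32.7 CPM, and CD200 is also known from B cells. Row 11 had the lowest Cd200 level of the class, and its interval of 24.2 to 46.2 CPM did not reach those of rows 13 and 17.

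Lag3, Tnfrsf18, Tnfrsf4 and Ctla4 were not 2-fold higher in every odd row. Lag3 reached 32.2, 28.2, 18.03 and 31.8 CPM against 12.1, 2.81, 1.962 and 3.00 CPM. Its log2 ratio of 0.93 in row 11 fell short of 2-fold where the other 3 rows were between 1.23 and 1.68, and without row 11 it joined the called genes, making 5. Row 11 was also the row whose remaining cells were shallowest, at a median of 2859 UMIs. With cells thinned to 2000 UMIs its Lag3 ratio was 0.90, and 0.81 in another random draw. The part of depth in this ratio was not tested. Tnfrsf18 was at 67.8, 49.7, 53.1 and 69.3 CPM against 29.9, 30.5, 18.3 and 31.0 CPM, with ratios of 0.56 to 1.16. Tnfrsf18 thus differed in order from Pdcd1 and Tnfrsf9, standing in the Ikzf2 class between the remaining cells and the even rows.

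The count of 4 changed when cells were thinned. With each cell thinned to 2000 UMIs, which leaves out shallower cells, 2 genes, Pdcd1 and Tnfrsf9, were called, because Cd160 had a log2 ratio of 0.99 in row 17 and Cd200 of 0.38 in row 11. In another random draw of the same size, chosen after seeing the data, 3 were called, with Cd200 back at 1.29 in row 11 and Cd160 at 0.93 in row 17. Median ratios of both remained above 1 in the draws.

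**Figure D2:**
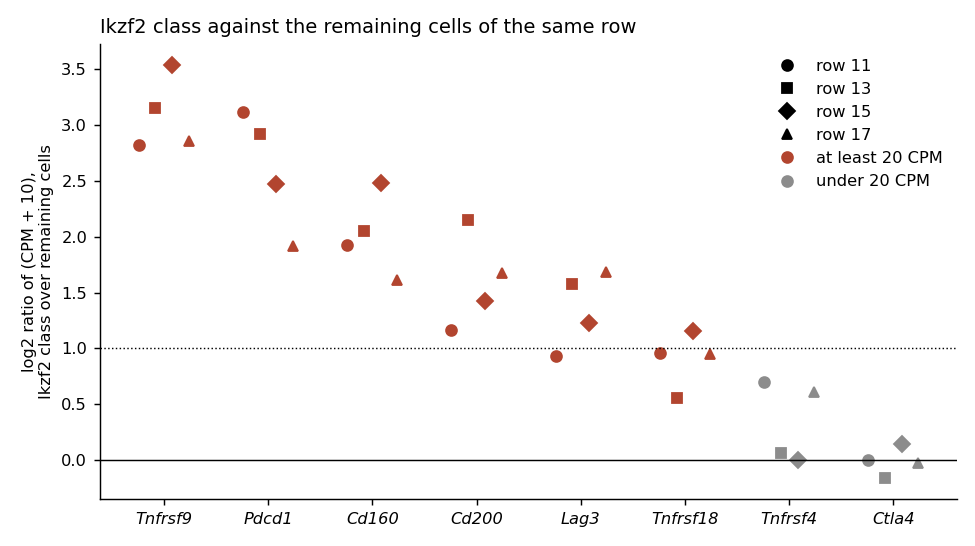
Log2 ratio of CPM + 10 in the Ikzf2 class over the remaining cells of the same odd row, with genes in order of their median; each symbol is 1 row, the dotted line marks 2-fold, and grey genes stayed under 20 CPM. Tnfrsf9, Pdcd1, Cd160 and Cd200 have all 4 rows above the line, and Lag3 has row 11 just below it.

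The other classes carried some of these genes on their own pattern. Tnfrsf4 was highest in the Cst3 class, at 18.1, 9.504, 10.7 and 22.6 CPM in rows 11, 13, 15 and 17, where 44.8% to 81.7% of its UMIs lay. In the Ikzf2 class it stood at 9.32, 5.59, 3.90 and 11.4 CPM, lower in each row but with overlapping counting intervals. Lag3 was as high in the Cst3 class of rows 11 and 15 (31.5 and 19.5 CPM) as in the Ikzf2 class, and lower there in row 17 (13.9 CPM). Both receptors were near the floor in the Rag1 class, where Lag3 had 3 UMIs in all 4 rows together and Tnfrsf4 also 3.

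Ctla4 alone of the 8 was highest in the Rag1 class. It stood there at 12.3, 19.5, 15.8 and 14.2 CPM, from 8, 41, 28 and 15 UMIs. In the Ikzf2 class it stood at 5.09, 3.63, 3.90 and 5.68 CPM, from 6, 13, 8 and 10 UMIs, and the counting intervals of the 2 classes were apart in rows 13 and 15 only. Unthinned, 4 of 72, 29 of 149, 15 of 122 and 12 of 75 Rag1 class cells had a Ctla4 UMI. These are deep cells in rows 13 to 17 (the median per row ran from 3684 in row 11 to 15274 UMIs), and at 2000 UMIs per cell the shares were 1.37% to 5.41%, against 0.00% to 2.00% in the Ikzf2 class. The GENCODE gene model of Ctla4 (chromosome 1, 60887000 to 60915832, plus strand) begins upstream of the RefSeq start and spans the pseudogene Rpl18-ps1 on the same strand; which part of the model the reads came from was not tested.

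**Figure D3:**
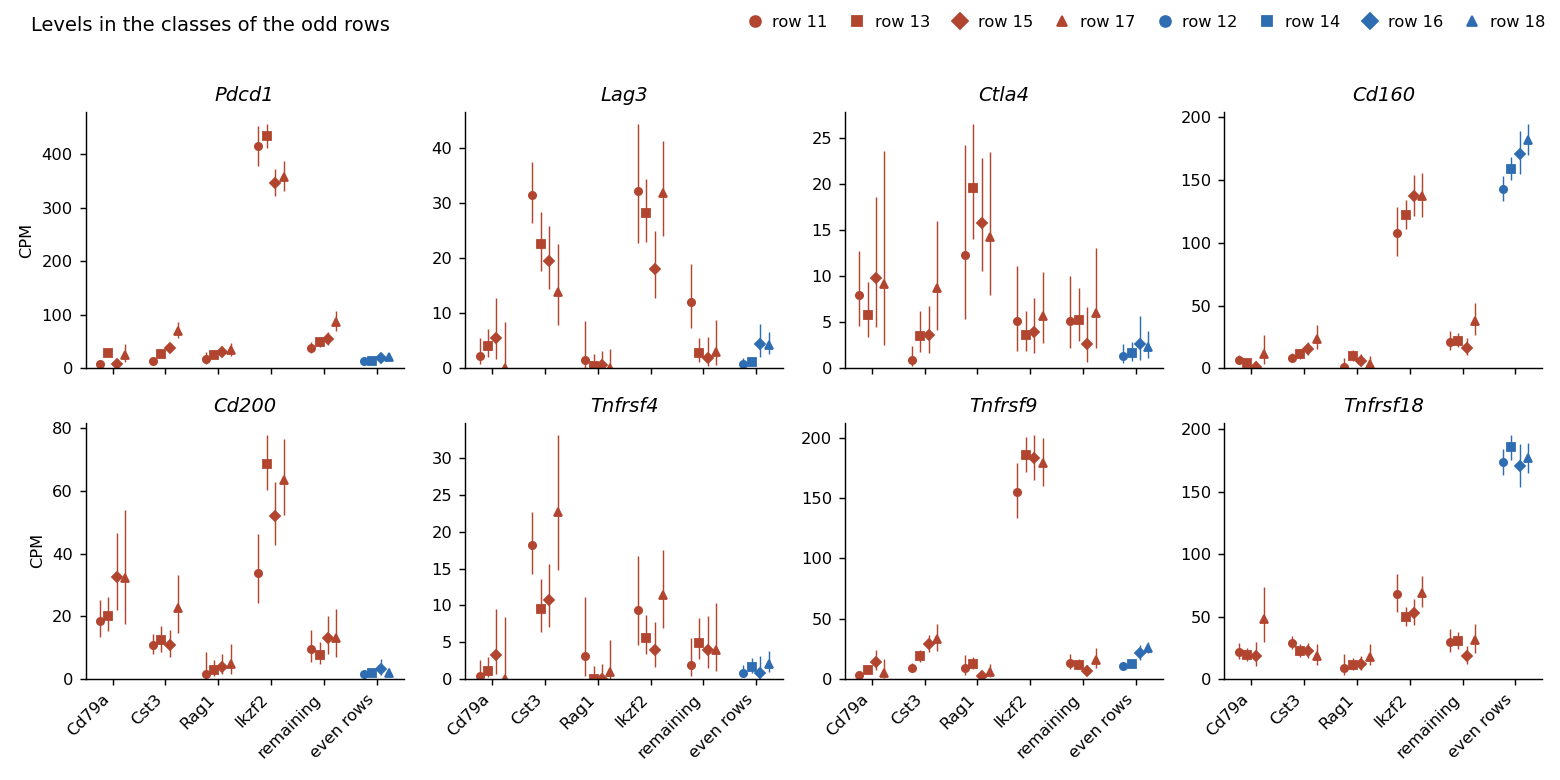
Level of each gene (CPM, linear axes from 0) in the 5 classes of the odd rows (red) and in the whole even rows (blue); each symbol is 1 row and bars are exact 95% counting intervals. Pdcd1 and Tnfrsf9 peak in the Ikzf2 class, Cd160 and Tnfrsf18 in the even rows, Tnfrsf4 in the Cst3 class and Ctla4 in the Rag1 class.

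Counted cell by cell at 2000 UMIs, 48.7% to 50.8% of the Ikzf2 class had a Pdcd1 UMI, 22.0% to 26.2% a Tnfrsf9 UMI and 20.0% to 25.8% a Cd160 UMI. The same shares were 8.71% to 11.3%, 0.599% to 5.22% and 4.19% to 9.57% in the remaining cells. The Cd79a class, in which little Cd160 or Pdcd1 was presumed, was used as a reference. Its shares were 1.61% to 5.45% for Pdcd1, 0.806% to 1.82% for Tnfrsf9 and 0.00% to 5.45% for Cd160. Its cells had a median of 5374 to 6454 UMIs before thinning. Whether these UMIs came from free RNA, from doublets or from the B cells themselves was not tested. Unthinned, the Pdcd1 share was 58.4% to 71.7% in the Ikzf2 class and 3.97% to 8.62% in the Cd79a class. The even rows had Pdcd1 UMIs in 2.40% to 4.25% of cells. This is within the range of the Cd79a class, so the share alone did not set the even rows apart from that class. Single cells there nevertheless held up to 6 Pdcd1 UMIs in row 16 and 8 in row 18, unthinned.

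In the even rows the frequent transcripts were Tnfrsf18, in 28.7% to 31.5% of cells, and Cd160, in 23.996% to 27.1%. Both were above their shares in the Cd79a class, where Tnfrsf18 reached 4.30% to 12.7%. Tnfrsf9 UMIs were in 2.34% to 4.16% of even-row cells, slightly above the B cells, and the even rows held 74.1 to 118 Tnfrsf9 UMIs per 100 Pdcd1 UMIs where the Ikzf2 class held 37.4 to 52.7, so that the transcripts were not in 1 ratio. Within the even rows, the same first-match split left few cells with at least 2 Ikzf2 UMIs (14 to 29 per row). They had 5, 4, 1 and 15 Pdcd1 UMIs in rows 12, 14, 16 and 18, or 47.2, 32.9, 17.5 and 105 CPM. Cells of those rows that passed none of the class limits held 13.8 to 19.7 CPM. In row 16 these stood at 17.6 CPM, so the Ikzf2 cells were not higher there.

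Even-row cells were also divided by at least 3 Ccl5 UMIs (a chemokine of effector cells) or, failing that, at least 1 Izumo1r UMI (a folate receptor family member of early iNKT1 cells). Of 6415 genes with a median of at least 20 CPM in either, 16.0% were higher in the Izumo1r cells in all 4 even rows and 9.35% lower. Cd160 and Tnfrsf18 lay on the higher side in all 4, with log2 ratios of 0.10 to 0.36 and 0.03 to 0.16, as did Pdcd1 at 0.19 to 0.68. Tnfrsf9 had the highest median ratio of the 8, 0.57, and was higher in 3 of the 4 rows (-0.03 to 0.86). Lag3, with 0 to 9 UMIs in each of these groups, was lower in all 4, at -0.85 to -0.08. These differences were small beside those between the classes of the odd rows.

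More than 1 of the 8 genes was found in 38.0% to 44.5% of Ikzf2 class cells at 2000 UMIs, and 3 or more in 14.7% to 20.0%. In the remaining cells 2 or more were found in 2.40% to 11.3%, and in the even rows in 9.91% to 13.4%. No more than 1.45% of the cells of any even row had 3 or more.

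**Figure D4:**
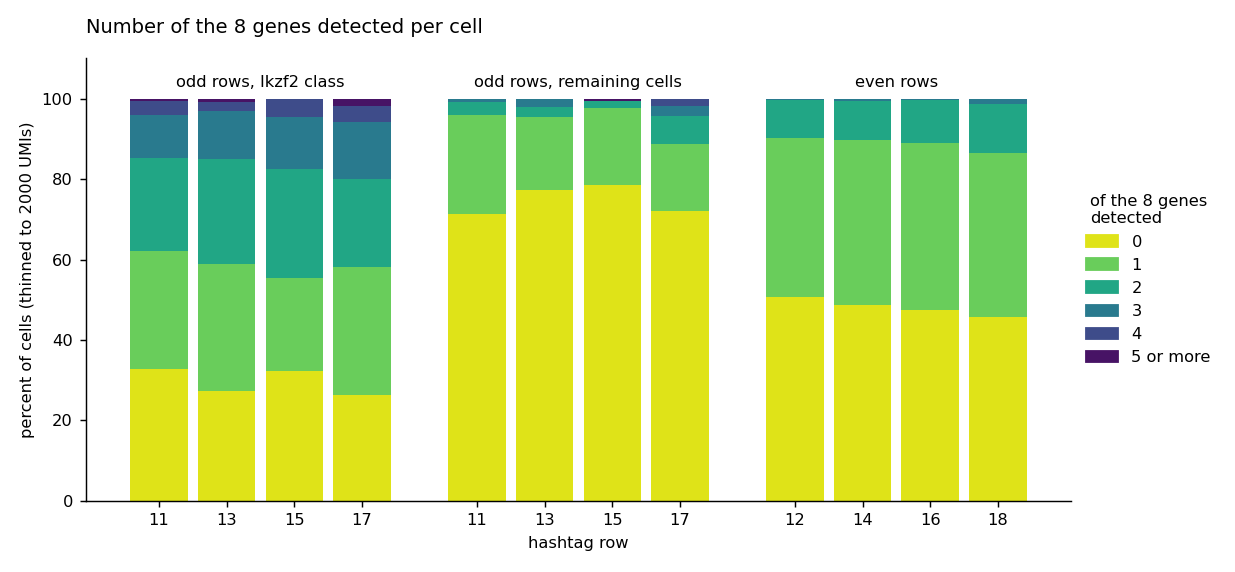
Percent of cells, each thinned to 2000 UMIs, with 0 to 5 or more of the 8 genes detected; each bar is 1 row. In the Ikzf2 class 38.0% to 44.5% of cells have 2 or more, against 9.91% to 13.4% in the even rows.

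Whether the receptors met in the same cells was examined over the 28 pairs in the 1053 Ikzf2 class cells with at least 2000 UMIs, as the share of cells with both over the product of the separate shares. A value of 1 is what independent draws would give. The largest joint group was Pdcd1 with Tnfrsf9, in 165 cells, at 1.06, 1.23, 1.35 and 1.15 in rows 11, 13, 15 and 17. Pdcd1 with Cd160 was found in 155 cells at 1.20 to 1.44, and Pdcd1 with Cd200 in 81 cells at 1.13 to 1.29. Cd200 with Tnfrsf9 (51 cells, 1.42 to 2.27) and Tnfrsf9 with Tnfrsf18 (62 cells, 1.37 to 2.18) were the highest among pairs seen in at least 50 cells in which all rows were above 1. In all, 12 pairs were above 1 in every row. Among the 6 receptors with a median of at least 20 CPM in the class this held for 10 of 15 pairs, against 6.31% of all pairs of the 6789 genes at that level and 6.54% of pairs of the 5097 genes within the range of these 6 receptors (30.01 to 386 CPM).

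Only Tnfrsf4 with Tnfrsf18 reached 2 in all 4 rows, at 2.38 to 4.77, and this pair was seen in 10 cells. Of all pairs of the 6789 genes, to which Tnfrsf4 does not belong, 0.0364% did so. These 2 genes are neighbours on chromosome 4 (Tnfrsf4 at 156013843 to 156016612 and Tnfrsf18 at 156026164 to 156028895, both on the plus strand, 9551 bases apart). The count of 1 pair became 0 with unthinned cells and with a limit of at least 1 or at least 3 Ikzf2 UMIs, and became 2 without row 13. At shares this low the joint counts are too few to read an association from. In the even rows, Cd160 and Tnfrsf18 were found together in 393 of 5206 cells at a ratio of 0.95 to 1.03, and no pair reached 2 in all 4 rows.

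**Figure D5:**
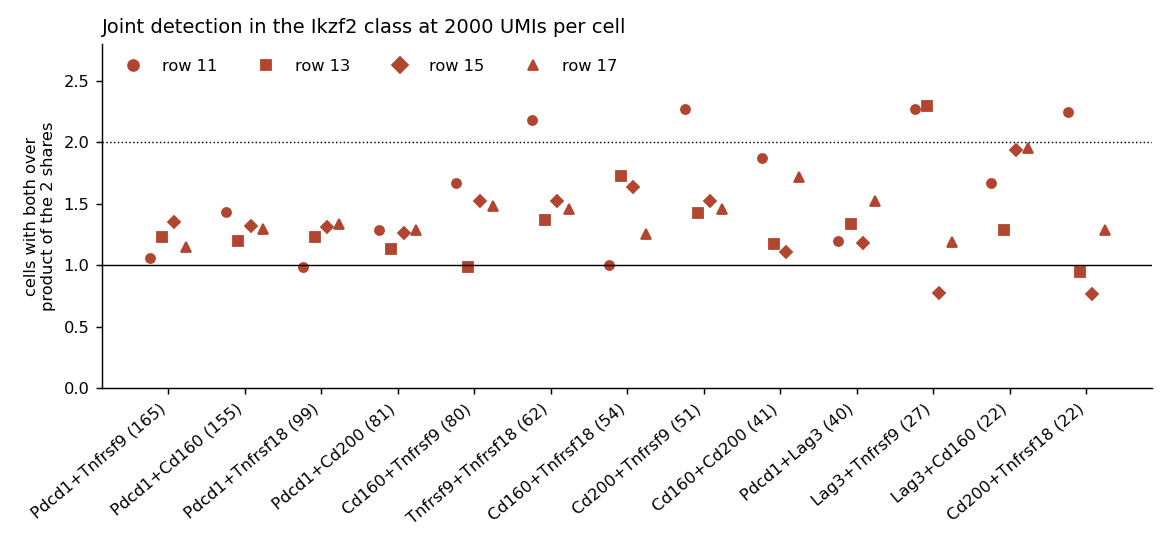
Share of Ikzf2 class cells with both genes over the product of the 2 separate shares, at 2000 UMIs per cell, for the 13 pairs found together in at least 20 cells (cells in brackets); each symbol is 1 odd row, the solid line is 1 and the dotted line 2. Most values lie between 1 and 2, and pairs with fewer cells scatter more.

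Seen from Tnfrsf9, the 268 Ikzf2 class cells with a Tnfrsf9 UMI were set beside the 785 without. Tnfrsf18 counted 21.4 to 51.5 UMIs per 100 cells with Tnfrsf9 and 11.1 to 15.95 without, over the 4 odd rows. Cd200 counted 15.2 to 29.8 against 3.42 to 14.7, and the ranges of Tnfrsf18 and of Cd200 did not overlap. Of 6788 other genes with a median of at least 20 CPM in the class, 2.74% lay with all 4 rows higher in the cells with Tnfrsf9 and 5.02% with all lower, without overlap. Tnfrsf4 counted 3.28 to 15.2 against 0.00 to 1.84. The ranges of Pdcd1 (90.9 to 143 against 81.1 to 94.9) and Lag3 (3.28 to 18.2 against 3.33 to 9.20) overlapped, and those of Cd160 (33.3 to 62.3 against 23.9 to 33.3) met.

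Genes of the same pathways were read from fixed lists in the comparison of the Ikzf2 class with the remaining cells. Of 14 genes known to rise after antigen receptor signalling, 10 passed 20 CPM in either class. Of these, 4 were at least 2-fold higher in all 4 odd rows, as were 0.825% of the 7027 genes tested. They were the nuclear receptors Nr4a1 (326 against 76.5 CPM, medians of the rows), Nr4a2 (106 against 18.5 CPM) and Nr4a3 (54.3 against 6.51 CPM), and Nfatc1 (199 against 63.6 CPM). Nr4a2 and Nr4a3 passed 20 CPM in the Ikzf2 class alone. The median log2 ratio of the 10 was 1.06. Egr2 missed, with ratios of 0.32 to 1.71, and Myc stood at -0.36 to -0.08.

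Among 12 further coreceptors, 7 passed and 2 were called, the inhibitory receptor Tigit (48.0 against 6.45 CPM) and the TNF receptor Tnfrsf1b (51.5 against 16.1 CPM). Both passed in the Ikzf2 class alone, and 0.825% of all genes tested were called. Cd28, Cd27 and Cd5 had median log2 ratios of 0.81, 0.62 and 0.61. None of 9 NF-kB target genes that passed was 2-fold higher in every row, and their median ratio was 0.49, with Relb at 0.91 and Nfkb2 at 0.80. None of the 7 signal transducers above 20 CPM was called either, Traf1 being highest at a median of 0.64, and the phosphatase Ptpn6, which acts below inhibitory receptors, at 0.12.

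The 10 binding partners listed for these genes are ligands, except that Cd200r1 is the receptor of CD200. None reached a median of 20 CPM over the rows in either class. Cd200r1 was highest in the Ikzf2 class, at a median of 19.5 CPM against 5.79 CPM in the remaining cells. Pdcd1lg2, a PD-1 ligand, stood at 16.7 and 5.14 CPM, below its 23.6 to 44.3 CPM in the even rows. Tnfsf9, the CD137 ligand, stood at 3.10 and 2.68 CPM. Fgl1 and Tnfsf18 had no UMI in either class. Foxp3, the defining gene of regulatory T cells, stood at 1.83 and 1.51 CPM, and of 7 regulatory T cell markers 2 passed 20 CPM and none was called. Il2rb and Xcl1, listed as iNKT1 markers, were called, at 203 against 37.7 CPM and 111 against 14.01 CPM. Xcl1 passed 20 CPM in the Ikzf2 class alone, and 0.825% of all genes tested were called. Klrb1c and Tbx21 of that list had medians under 10 CPM in both classes. Of the DP thymocyte markers 6 passed with a median ratio of -0.94, none of them 2-fold lower in every row. The lists of B cell, myeloid, DN thymocyte, iNKT17, conventional mature single-positive, gamma-delta T and NK markers held no gene called in either direction, and in the stage 0 iNKT list Ikzf2, which set the class, was the one gene called.

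The genes most like each receptor were found by Pearson's r of log2(CPM + 10) over 24 groups of cells, the 4 even rows and the 20 classes of the odd rows, among 5712 genes. These groups share 1 library, and groups of 1 row share its depth, so r is a description. Pdcd1 was most like Trpm1 (0.98), Cldn10 (0.96) and Gm45716 (0.95), and Tnfrsf9 most like Eno3 (0.94), Nr4a3 (0.93) and Itgb8 (0.91). Cd160 was most like Ipcef1 (0.96), Inpp1 and Adora2a (both 0.95), and Tnfrsf18 most like Vopp1 (0.97), Cd7 (0.96) and Il2rb (0.95). Cd200 was most like Dusp4 (0.91), Zfp52 (0.86) and Myo1e (0.84).

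Lag3 (Prr5l at 0.93, Mctp1 at 0.92, Actg1 at 0.87), Tnfrsf4 (Tax1bp3, Spag9 and Pgap2, at 0.87 to 0.86) and Ctla4 (Snrnp25 at 0.80, Gm37065 at 0.78, Rpl24 at 0.77) did not reach 50 CPM in any group, and counting error weighs most on their r. Between the receptors themselves, Pdcd1 and Tnfrsf9 stood at 0.89 and Cd160 and Tnfrsf18 also at 0.89. Pdcd1 and Tnfrsf18 stood at 0.09.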

How the data were processed

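The deposited matrix held UMI counts of 32285 genes and 20 hashtag features for 16179 barcodes of 1 droplet library. Per the labels and the study's methods, the authors made these counts with Cell Ranger on mm10 and analysed them with Seurat. No source used here names the release of the reference. The filters left 12147 barcodes, of which 10007 were assigned to a hashtag row (577 to 2162 per row, 2283162 to 14601545 gene UMIs per row). Cells with more than 1 hashtag were thereby removed, while doublets within a row were not.

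CPM was computed from summed counts, log2 ratios with a pseudocount of 10 CPM, Poisson intervals for levels and Clopper-Pearson intervals for shares (Python 3 with numpy, pandas and scipy). Cells were thinned to 2000 UMIs without replacement for shares of cells, which left 9239. PCR duplicates were collapsed by UMI, and intervals cover counting error only. All rows came from 1 library, so no p-value was computed. The named genes were the 8 receptors, the 4 genes that set the classes, the 3 most similar genes of each receptor, and the pathway and marker lists. The members, classes and lists were chosen with earlier results of these data known. The code was tested on simulated data. Alternatives changed the hashtag, cell, gene and class limits, the CPM total, the pseudocount, the thinned depth and the set of odd rows.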

Additional observations from a re-analysis of the deposited data

Results flagged for a closer look

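Hashtag rows outside the 8 used were nearly empty, but row 1 held 12255 UMIs and row 4 held 11854, while the other unused rows held 12 to 599. They were flagged as signal in features that no comparison used. A further 2140 cells passed the filters with no single hashtag row at 80%. Their Pdcd1 level was 75.1 CPM (95% counting interval 71.4 to 79.0), against 79.5 CPM (77.2 to 81.8) in the assigned cells, and Lag3 stood at 12.9 CPM (11.4 to 14.6) against 10.2 CPM (9.40 to 11.05). Their median depth was 7132 UMIs per cell against 3828. Differences among the rows were not screened for outlying samples, since the rows belong to no labelled group.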

How the results depend on the processing

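No paired analysis was possible because the hashtag rows carry no group or replicate number; the classes were compared within each row. The number of receptors at least 2-fold higher in the Ikzf2 class of every odd row was 4, and 3 to 5 under every alternative but one: it was 2 with cells thinned to 2000 UMIs after the classes were set, where sparser counts and fewer cells enter. Pdcd1 and Tnfrsf9 were among them in all 16 alternatives, and leaving out 1 odd row at a time gave 4 to 5. All 8 receptors kept their even rows on one side of their odd rows under 8 of 9 alternatives. It was 7, without Tnfrsf9, when ribosomal protein, Gm and mitochondrial genes were left out of the total; that choice raised levels 1.24 to 1.36-fold in the rows. The number of pairs at a ratio of 2 was 1, became 0 with at least 1 Ikzf2 UMI, with at least 3 Ikzf2 UMIs and with unthinned cells, and was 1 to 2 with 1 odd row left out; at a depth of 1000 UMIs the 1 pair was Tnfrsf4 with Tnfrsf9. The cause was not tested for these pair counts. Of the median log2 ratios, Ctla4 ran from -0.28 to 0.53 and changed sign between settings, Lag3 from 0.49 to 2.81 with the pseudocount, Pdcd1 from 2.11 to 2.92, Tnfrsf9 from 1.86 to 3.65, Cd160 from 1.21 to 2.37 and Cd200 from 0.77 to 2.06; Cd200 was below 2-fold at a pseudocount of 50 CPM. Ctla4 and Tnfrsf4 had the fewest UMIs of the 8, at 280 and 284 over all assigned cells.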
